A study of Mus musculus with 12 samples.

Results

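RNA-seq was compared between osteoclasts, the cells that resorb bone, and macrophages grown beside them from the same bone marrow, so that the cultures differed in whether RANKL was added. The comparison takes 8 of the 12 samples of the study, 4 of each cell type, and all 46072 genes in the osteoclast and macrophage rows of the authors' deposited table. For 17822 of these genes the table lists an adjusted p. The other 4 samples were immature dendritic cells, grown with GM-CSF at 20 ng/ml, whose means stand beside a few genes only. Marrow came from C57BL/6J mice of 6 to 8 weeks and no altered gene is named in the labels for any group. Cells that did not stick to the dish were expanded for 5 days in M-CSF at 100 ng/ml and detached with Accutase, an enzyme mixture that loosens cells. Macrophages were then kept in M-CSF at 30 ng/ml, and osteoclasts in M-CSF at 30 ng/ml with RANKL at 50 ng/ml, both for 8 to 10 days. Osteoclast wells were seeded more densely than macrophage wells, and they alone had a second, brief Accutase step before lysis, meant to lift off cells with a single nucleus. The effect of RANKL on RNA therefore cannot be told apart from those of seeding and of this removal. In each of 4 experiments the RNA of every cell type came from the same mouse. In RNA from whole cultures, fewer cells of a type and less RNA per cell cannot be told apart.

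RANKL is the cytokine that turns cells of the macrophage lineage into osteoclasts. It binds RANK, which works through TRAF adaptor proteins to activate NF-κB, MAP kinases and, with the help of receptors that carry ITAM-bearing partners and of calcium signals, the transcription factor NFATc1. The maturing cells fuse, attach to bone through integrins and a ring of podosomes, pump out acid with a vacuolar ATPase and chloride channels, and release cathepsin K and other enzymes that break down the matrix. M-CSF, present in both cultures, keeps macrophages and their precursors alive.

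All 5 markers used to check the cell types, Ctsk, Acp5, Mmp9, Fcrls and Apoe, followed the labels. In the authors' deposited table, Ctsk, the collagen-degrading protease of osteoclasts, had a mean of 87806 in osteoclasts and 137 in macrophages. Fcrls and Apoe, used here as macrophage markers, had deposited means of 2609 and 43819.7 in macrophages against 28.3 and 5476 in osteoclasts. Here and below, every log2 fold change given with ±, and every mean, ratio of means or adjusted p called deposited, is from the authors' deposited table. Genes are said to be higher or lower, or to have risen or fallen, where the adjusted p in that table was under 0.05, and not called where it was not. A deposited mean is an average over 4 libraries of read counts, each divided by a size factor for library depth. A deposited log2 fold change is osteoclast over macrophage, and the value after ± is the standard error implied by its p-value. Reads in each library could be worked back from means of at most 1000, and are given as normalised reads in libraries a to d, letters that carry no replicate number. The letters do not pair libraries across the cell types. Libraries of a cell type resembled each other more than those of the other type. Over 6061 genes with reads recovered in both cell types, the mean correlation of an osteoclast library with the other osteoclast libraries was 0.945 to 0.956. That of a macrophage library with the other macrophages was 0.893 to 0.924. Macrophage library c stood nearest to the osteoclasts, with a mean correlation of 0.817 against 0.720 to 0.785 for the other macrophage libraries. In it Dcstamp and Ocstamp, membrane proteins needed for osteoclast fusion, were highest: the 4 macrophage libraries held 149, 35.1, 384 and 24.6 normalised reads of Dcstamp and 7.67, 7.79, 31.2 and 10.8 of Ocstamp. Without library c the macrophage means of these genes went from 148 to 69.4 and from 14.4 to 8.76. Macrophage library a was the least like its group (0.893), and osteoclast library d the least like its own (0.945). Osteoclast library d also stood nearest to the macrophages (0.805, against 0.757 to 0.775 for the other osteoclast libraries). In each cell type 1 library had high Y-linked reads.

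The authors' test called 5216 of 17822 genes at an adjusted p under 0.05, which is 29.3% of those tested. In osteoclasts 2593 were higher (14.5%) and 2623 were lower (14.7%). Large differences were mostly upward: 360 genes were higher and 187 lower by at least 8-fold, and 107 were higher and 27 lower by at least 64-fold. Called genes that were higher made up 25% of all osteoclast reads, as summed deposited means, and 13.9% of macrophage reads. Those called lower made up 18.7% of osteoclast reads and 31.8% of macrophage reads. On the reads recovered for each library, limma tested 8914 genes and called 1238 higher (13.9%) and 1145 lower (12.8%). Of 8896 genes in both tests, limma shared 1183 of the authors' 1365 calls upward and 1105 of their 1391 calls downward, and it called 0 the opposite way. Without macrophage library c, limma called 1188 higher and 1127 lower. The libraries of the cell types did not overlap for 2721 of the 8914 genes (30.5%).

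**Figure D1:**
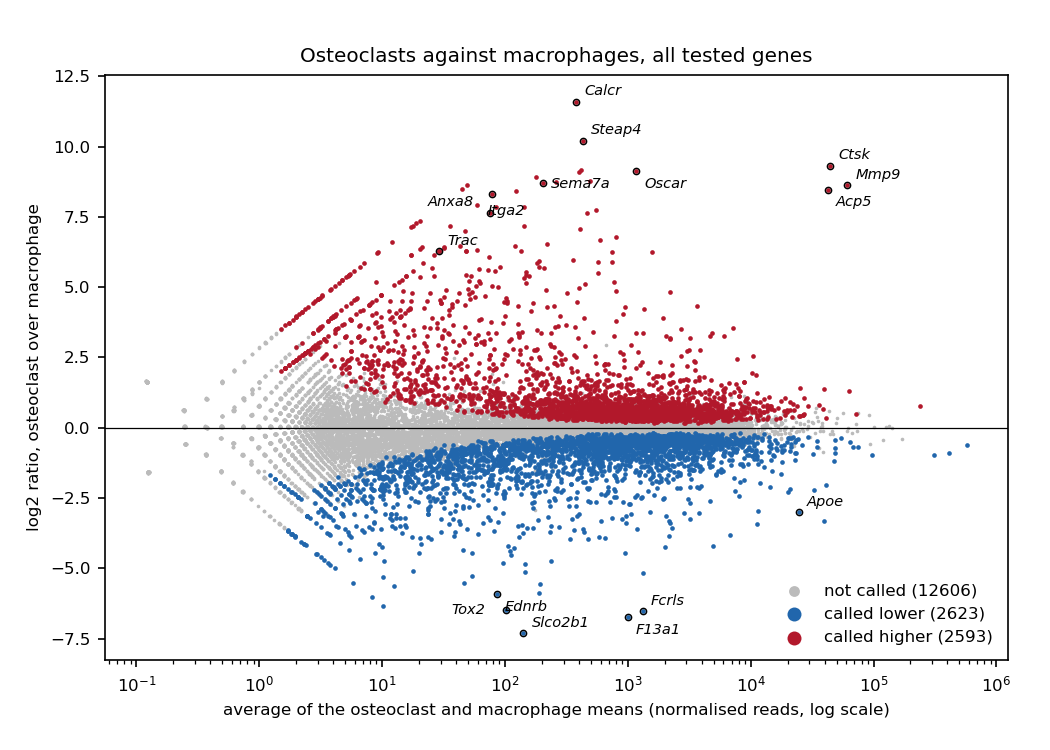
Each point is 1 of the 17822 tested genes, placed by the average of its osteoclast and macrophage means (log axis, normalised reads). The vertical axis is the log2 ratio of the deposited means, osteoclast over macrophage. A mean of 0 is set to 0.75, which stands for 3 reads over 4 libraries. Where the other mean is under 0.75, this places the gene on the opposite side of 0. The 2593 genes called higher (red) reach farther from 0 than the 2623 called lower (blue), and Ctsk, Acp5 and Mmp9 stand alone at high means.

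The largest increases are described first, with the reads of each library. Calcr, the receptor of calcitonin, a hormone that stops osteoclasts from resorbing, lies at chr6:3685680-3764714; all coordinates are from GENCODE M21 on GRCm38. Its osteoclast libraries held 578, 583, 1292 and 568 normalised reads and its macrophage libraries 0, 0.974, 0 and 0. The groups did not overlap, and the ratio of deposited means was 3102 (exact binomial interval 557 to 122704), the 95% interval covering counting error only. Osteoclast library c was the highest, and the other 3 lay close together. Steap4, a metalloreductase that reduces iron and copper (chr5:7960457-7982213), held 429, 616, 1734 and 658 in osteoclasts and 0.959, 0.974, 0.974 and 0 in macrophages, and library c was again the highest, with an osteoclast mean of 859 with it and 568 without it. Rufy4, a protein tied to autophagy (chr1:74125541-74148223), held 759.9, 806, 1231 and 544 in osteoclasts against 0, 1.95, 3.90 and 0, a 571-fold ratio of deposited means. In each of these 3 genes the lowest osteoclast library lay above every macrophage library.

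A further 5 genes had no read in any macrophage library. Anxa8, an annexin that binds membranes (chr14:34085981-34100571), had 155, 229.5, 150.2 and 69.5 normalised reads in the osteoclast libraries, at least 201-fold higher against a floor of 3 reads over the 4 macrophage libraries. Sucnr1, the receptor of the metabolite succinate (chr3:60081869-60087566), had 115, 114, 80.1 and 71.5, at least 127-fold higher by the same floor. Osteoclast library d was the lowest of its group in both. Fbln7, a fibulin of the extracellular matrix, had 57.6, 49.7, 82.1 and 24.2. Tpsab1, a tryptase best known from mast cells, had 95.4, 107, 40.1 and 11.1, a nearly 10-fold spread within the group. Trac, the constant segment of the T cell receptor alpha gene, had 59.6, 69.5, 79.1 and 25.2. Adjusted p-values from limma on recovered reads ran from 2.59e-06 (Sucnr1) to 0.000256 (Tpsab1) over these 5. Other genes of T cells and mast cells had few reads. The deposited means of Cd3e and Cd3g, parts of the T cell receptor complex, were 0 in both cell types. Over 15 markers of T and NK cells, Trac among them, the summed normalised reads were 91.7 to 136 in osteoclast libraries and 21.6 to 61.4 in macrophage libraries, with 8 and 9 markers at 0. Over 11 markers of mast cells and basophils they were 9.07 to 20.0 and 7.79 to 16.7, with 6 and 3 markers at 0, and the deposited means of the mast cell protease Cpa3 were 0.25 and 0.725. The part of these cells in the reads of Trac and Tpsab1 was not tested.

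The remaining genes among the 15 with the largest increase spanned several functions. Oscar, an ITAM-coupled receptor for collagen (chr7:3609813-3616157), had deposited means of 2313 in osteoclasts and 4.13 in macrophages, a 559-fold ratio. Mt3, a metallothionein that binds zinc and copper, had 793 and 1.47, a 540.5-fold ratio of deposited means. Mst1r, the receptor tyrosine kinase RON, had deposited means of 974 and 2.21, with a log2 fold change of 7.43 ± 0.80. Akr1c18, which inactivates progesterone, differed 426-fold between its deposited means of 520.3 and 1.22. Msln, which encodes mesothelin, and Serpind1, a thrombin inhibitor, had 3 macrophage reads each, and their ratios of deposited means were 489 (exact binomial interval 167 to 2367) and 339.6 (exact binomial interval 115 to 1643). These macrophage means rest on few reads, and 1 library moved some of them. Without macrophage library d they were 0.649 (Mst1r), 0.644 (Akr1c18) and 0.974 (Mt3), and without library c they were 0.320 (Msln), 0.320 (Serpind1) and, in place of 1.46, 0.649 (Rufy4). Mmp9, a gelatinase, Ctsk and Acp5, the acid phosphatase TRAP, had the highest osteoclast means of the 15, at 121458, 87806 and 84237 in the deposited table. The 4 macrophage libraries held 343, 241, 255 and 398 normalised reads of Mmp9, 173, 300.0, 279 and 200.5 of Acp5 and 132, 140.2, 131 and 146 of Ctsk, and library c was not the highest in any of them. In dendritic cells, 12 of these 15 genes had a deposited mean between those of the other cells and 7 had one under 10; Sema7a alone was above both, at 469.

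**Figure D2:**
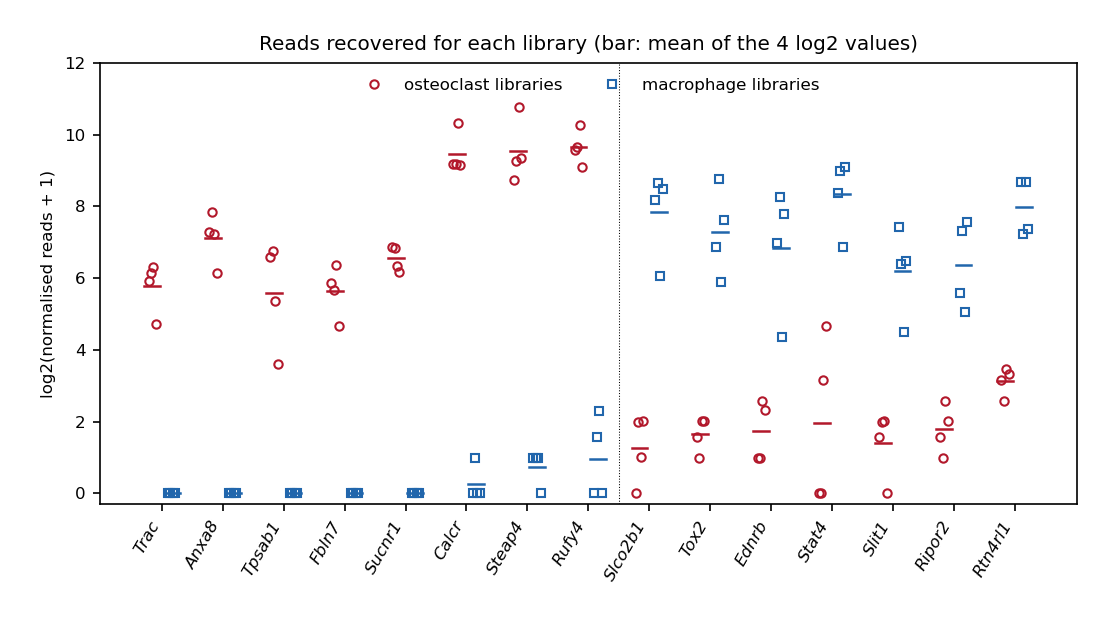
Normalised reads of each library on a log2(reads + 1) scale for the 8 genes with the largest increase (left) and 7 of the 8 with the largest decrease (right) among genes whose reads could be recovered; circles are osteoclast and squares macrophage libraries, and bars are means of the 4 log2 values. No gene has overlapping groups, and macrophage library c holds the lowest macrophage value of Slco2b1 (65.3).

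The largest decreases follow in the same way. Slco2b1, an organic anion transporter (chr7:99657804-99711340), held 289.5, 405, 65.3 and 358 normalised reads in the macrophage libraries and 0, 2.98, 1.00 and 3.02 in the osteoclast libraries. Tox2, an HMG-box transcription factor (chr2:163203125-163324170), held 115, 437, 58.5 and 195 in macrophages and 1.99, 0.994, 3.00 and 3.02 in osteoclasts. Ednrb, an endothelin receptor (chr14:103814625-103844402), held 126, 306, 19.5 and 221 in macrophages and 0.993, 0.994, 5.01 and 4.03 in osteoclasts. In all 3 the groups did not overlap and macrophage library c was the lowest of its group. Without it the macrophage means were 351, 249 and 218, in place of 279, 201 and 168. Stat4, a transcription factor activated by interleukin 12, held 329.8, 503, 117 and 551 against 0, 0, 8.01 and 24.2. Without library d its osteoclast mean went from 8.05 to 2.67, and without library b the macrophage mean of Tox2 went to 123. Slit1, a guidance ligand, held 173, 83.8, 21.4 and 88.5 against 1.99, 2.98, 3.00 and 0, Ripor2 held 47.0, 157, 32.2 and 188 against 1.99, 0.994, 5.01 and 3.02, and Rtn4rl1, a Nogo receptor relative, held 409, 149, 409 and 164 against 7.95, 4.97, 10.0 and 9.07. For each of the 15 genes with values per library in both cell types above, picked for the size of their difference, the two-sided exact permutation p over 8 libraries was 0.0286, the smallest that 4 against 4 allows. Any gene whose groups do not overlap reaches this p, and 30.5% of the 8914 genes had no overlap. For the 15 genes, the adjusted p from limma over all 8914 ran from 1.67e-06 (Calcr) to 0.00158 (Stat4).

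Among decreased genes whose reads could not be recovered in both cell types, F13a1, the A chain of coagulation factor XIII (chr13:36867178-37050244), had deposited means of 18.5 in osteoclasts and 1972 in macrophages. Its deposited log2 fold change of -3.80 ± 1.01 was smaller than the log2 ratio of its means, -6.73. Fcrls, an Fc receptor-like protein of resident macrophages (chr3:87250758-87263738), was 92.3-fold lower by deposited means, with 21.9, 21.9, 28.0 and 41.3 normalised reads in the osteoclast libraries. Ccnd2, which encodes cyclin D2, was 35.7-fold lower by deposited means (73.0 against 2604), and Rhoh, a small GTPase of blood cells, 29.0-fold lower. Ctla2a, a cysteine protease inhibitor, was 26.9-fold lower, Gpr34, a lysophosphatidylserine receptor, 28.4-fold, and Smo, the transducer of hedgehog signals, 21.9-fold by deposited means. The osteoclast mean of Smo was 4.76 with library c and 2.67 without it, and that of Gpr34 6.52 with library d and 4.33 without it. In dendritic cells 6 of the 15 genes with the largest decrease had a deposited mean above both other cell types, among them Ccnd2 at 12616.

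RANK itself and the NF-κB pathway that it feeds differed most at adaptors, inhibitors and the alternative branch. Of 32 genes of RANK signalling, 9 were higher and 3 lower in osteoclasts, which is 28.1% and 9.38% against 14.5% and 14.7% of all genes tested. Shares after the other counts are to be read against these. The median log2 ratio of deposited means was 0.15, or 0.09 with a mean of 0 at its bound, against -0.03 over all tested genes. Tnfrsf11a, which encodes RANK, had deposited means of 4023 in osteoclasts and 2692 in macrophages and a log2 fold change of 0.58 ± 0.16 (deposited adjusted p = 0.00137). In dendritic cells its deposited mean was 583. Traf1, a TRAF adaptor induced by NF-κB, rose most, from 436 to 4986 (3.49 ± 0.18, deposited), and its macrophage libraries held 423, 459, 529 and 332. Traf3 and Traf2, which hold back the alternative NF-κB pathway, rose by 1.31 ± 0.13 and 1.08 ± 0.11 on the deposited log2 scale. Nfkb2 and Relb, the p100 subunit and its partner in that pathway, rose by 1.64 ± 0.18 and 0.80 ± 0.22. Among inhibitors, Nfkbie rose by 1.62 ± 0.21, Nfkbia by 1.28 ± 0.17 and Tnfaip3, which encodes A20, by 0.67 ± 0.20. The classical subunits did not pass the test: the deposited log2 fold change was 0.01 ± 0.17 for Rela and -0.02 ± 0.12 for Nfkb1. Nor did Traf6, the adaptor on which RANK depends (0.12 ± 0.18), or Map3k14, the kinase NIK (-0.06 ± 0.22). The 3 genes called lower were Gab2 (-0.56 ± 0.22), Mapk14, which encodes p38α (-0.40 ± 0.13), and Tab2 (-0.36 ± 0.14). This count was 1 with the summed means of the cell types made equal and 6 with their upper quartiles made equal.

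Of 26 transcription factors and coactivators known to promote osteoclast formation, 10 were higher and 2 lower (38.5% and 7.69%). Ppargc1b, which encodes PGC-1β, a coactivator of mitochondrial genes, had the largest increase, at 3.30 ± 0.28 on the deposited log2 scale. Its osteoclast libraries held 438, 349, 402 and 244 normalised reads and its macrophage libraries 39.3, 41.9, 23.4 and 35.4, with no overlap. Jdp2, an AP-1 protein, rose by 3.17 ± 0.24, from a deposited mean of 433 to 3994. Other AP-1 genes split: Fosl2 (1.76 ± 0.28), Fos (1.53 ± 0.41) and Junb (1.5 ± 0.56) were higher, Jun (-0.04 ± 0.20) was not called, and Fosb (-1.78 ± 0.39) was lower by the deposited test. Nfatc1, the master factor of the lineage, rose by 1.36 ± 0.20, from a deposited mean of 1894 to 4904 (deposited adjusted p = 7.93e-10). Nfatc2 and Nfatc3 did not pass the test (-0.26 ± 0.15 and 0.03 ± 0.10). Myc (1.40 ± 0.33), Prdm1, which encodes Blimp1 (1.24 ± 0.45), Tfec (0.76 ± 0.25) and Spi1, which encodes PU.1 (0.59 ± 0.17), were higher by the deposited test. The libraries of Prdm1 and of Tfec overlapped (exact permutation p 0.0571 for each), and without library a the macrophage mean of Prdm1 went from 377 to 219. Mitf (0.01 ± 0.21) and Tfe3 (-0.28 ± 0.12), relatives of Tfec that drive lysosomal and osteoclast genes, were not called. Hes1, a Notch target, was lower, with 17.3, 10.7, 91.6 and 36.4 normalised reads in the macrophage libraries and 3.97, 1.99, 2.00 and 1.01 in the osteoclast libraries. Library c held most of the macrophage reads, and the mean without it was 21.4.

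Of 15 genes that restrain osteoclast formation, 6 were lower and 3 higher (40% and 20%). Irf8, an interferon regulatory factor that blocks the lineage, fell most, from 3156 to 899.9 in deposited means (-1.79 ± 0.20, deposited adjusted p = 8.98e-18), and its osteoclast libraries held 1065, 932, 665 and 938 normalised reads. Cd200r1, an inhibitory receptor (-0.98 ± 0.20), Id2 (-0.87 ± 0.26), Bcl6 (-0.82 ± 0.19) and Inpp5d, which encodes the phosphatase SHIP1 (-0.47 ± 0.09), were also lower by the deposited test. The genes that rose were feedback inhibitors. Rcan2 and Rcan1 inhibit calcineurin, the phosphatase that activates NFATc1, and rose by 4.09 ± 0.68 and 0.95 ± 0.18. Rcan2 held 20.9, 37.8, 35.0 and 17.1 normalised reads in osteoclasts and 0, 0, 3.90 and 0.983 in macrophages, where the mean was 1.22 with library c and 0.328 without it. Socs3, an inhibitor of cytokine signals, rose by 1.37 ± 0.39 on the deposited scale, though its libraries overlapped (exact permutation p 0.0857).

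**Figure D3:**
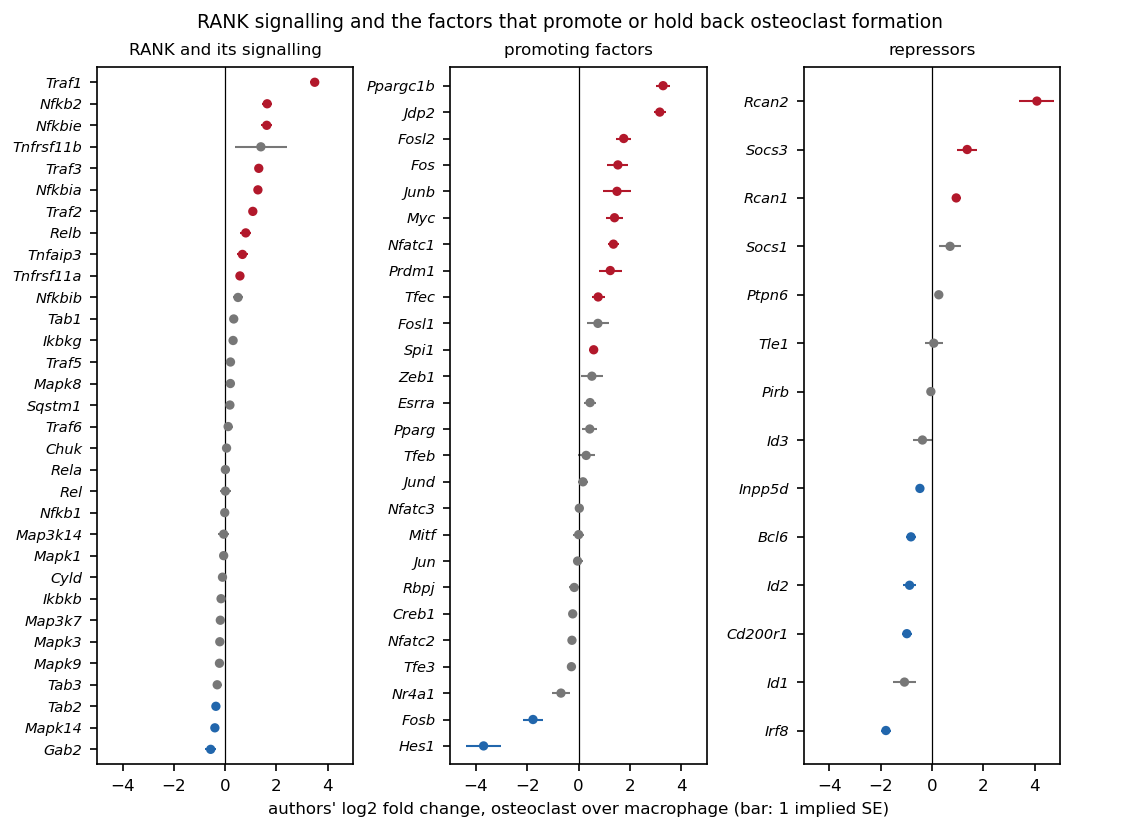
Log2 fold changes from the authors' deposited table, osteoclast over macrophage, of tested genes of RANK signalling (left), promoting factors (middle) and repressors (right, 14 of 15); bars are 1 implied standard error on each side, red was called higher, blue lower and grey not called. Traf1, Ppargc1b and Jdp2 stand above 3, Rela, Nfkb1 and Mitf lie near 0, and Irf8 lies below -1.5.

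The receptors that aid RANK through ITAM-bearing partners did not move together. Of 21 tested, 5 were higher and 7 lower (23.8% and 33.3%). Oscar, described above, and Siglec15, a receptor for sialic acid that pairs with DAP12, were nearly absent from macrophages. The deposited means of Siglec15 were 168 in osteoclasts and 0.735 in macrophages, a ratio of 229 (exact binomial interval 78.5 to 1120.3). Pira2, another activating receptor, rose by 0.69 ± 0.14. The partners did not rise: Tyrobp, which encodes DAP12, was not called (-0.05 ± 0.13), and Fcer1g, which encodes the Fc receptor γ chain, was lower (-0.70 ± 0.11). Trem2, a DAP12 receptor for lipids, was lower (-0.78 ± 0.15), as was Vav3 (-1.06 ± 0.25), and Syk, the kinase that ITAMs recruit, was not called (-0.04 ± 0.17). Of 27 genes of calcium entry and calcineurin, 3 were higher and 7 lower (11.1% and 25.9%). Orai2 and Stim2, a store-operated channel and a sensor of calcium stores, rose by 0.80 ± 0.16 and 0.75 ± 0.12 on the deposited scale. Trpv4, a calcium channel of the plasma membrane, fell (-2.27 ± 0.40), and Atp2a3, a pump that fills the stores (-1.47 ± 0.24).

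Genes of fusion and of bone breakdown were called higher more often than genes overall. Of 18 fusion genes, 10 were higher (55.6%, against 14.5% of all tested) and 4 lower. Ocstamp had deposited means of 1589 in osteoclasts and 14.4 in macrophages and 2583 in dendritic cells, and Dcstamp 4231 and 148, with 7666 in dendritic cells. Flrt2, a cell adhesion protein, rose by 2.19 ± 0.21. Cd47, the "do not eat me" ligand, was not called (0.06 ± 0.14), while its receptor Sirpa was lower (-0.70 ± 0.12), as were Cd81, a tetraspanin (-0.84 ± 0.17), and Cd36, a scavenger receptor (-1.48 ± 0.37). Of 22 resorption and acid secretion genes, 15 were higher (68.2%) and 1, Rab27a, was lower, with a median log2 ratio of 1.37; these include Ctsk, Mmp9 and Acp5. Of 20 vacuolar ATPase genes, 14 were higher (70%). The only one lower was Atp6v0a1, a subunit of the membrane domain (-0.53 ± 0.15), while Atp6v0d2 rose by 2.48 ± 0.34 and its paralog Atp6v0d1 was not called (0.12 ± 0.08).

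Ctsk rose, and the most abundant cathepsins were lower. Of 20 cathepsins and inhibitors tested, 3 were higher and 5 lower (15% and 25%). Ctsd and Ctsb, lysosomal proteases, were the most abundant genes of macrophages after Lyz2, the lysozyme gene, by deposited means. Ctsd fell from 531813 to 284037 and Ctsb from 409598 to 207700.0. Ctsh (-1.66 ± 0.21), Lgmn, which encodes legumain (-1.0 ± 0.22), and Ctso (-0.55 ± 0.13) were lower by the deposited test. Ctss, which cuts the invariant chain in antigen presentation, had deposited means of 61647 and 61633 and was not called, nor was Ctsl (0.36 ± 0.15). Ctsz rose by 0.43 ± 0.13 and Cstb, the cytosolic inhibitor cystatin B, by 0.91 ± 0.09. Per kilobase of exon, the deposited mean of Ctsk in osteoclasts was 58072, against 120816 for Ctsd and 34325 for Ctsb. Of 20 metalloproteinases and inhibitors, 2 were higher and 4 lower (10% and 20%). Those that rose were Mmp9 and the membrane-bound Mmp14 (3.30 ± 0.34). Mmp11 (-2.40 ± 0.40), Mmp27 (-1.66 ± 0.49) and Reck, a membrane inhibitor of these enzymes (-1.71 ± 0.34), were lower by the deposited test, and Mmp12, the macrophage elastase, was not called (0.68 ± 0.40). The libraries of Mmp27 overlapped, with 60.6, 72.5, 140.2 and 147 normalised reads in osteoclasts and 197, 714, 72.1 and 438 in macrophages (exact permutation p 0.143, limma adjusted p 0.126), and its macrophage mean was 355 with library b and 236 without it.

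Promoters of resorption genes were read from RefSeq (GRCm38.p6), which held windows of 300 bases for 12 of the 15 called genes. Motifs were sought on both strands. TCATGTG, the core of the M-box that MITF and its relatives bind, was in 2 of 20 windows (10%), against 3.77% of all 32851 windows. TGANTCA, the site of AP-1, was in 3 of 20 (15%), against 7.81% of all. TGGAAA, the core that NFAT binds, was in 5 (25%), against 21.4%. In the windows of all genes called higher, the shares of these motifs were 1.72%, 6.84% and 17.5% in the same order. For genes tested and not called they were 2.36%, 5.19% and 17.2%. In the 28 windows of interferon-stimulated genes called lower they were 0%, 28.6% and 39.3%. In the 17 windows of macrophage identity genes called lower they were 5.88%, 11.8% and 29.4%. The 250 bases before the start are shown for 2 genes that hold a match and were among the 15 with the largest increase. These are Acp5 with its M-box core and Rufy4 with its AP-1 site. The same search listed no match to either motif in these bases for Ctsk, Calcr, Oscar, Itga2 or Steap4. The motif is in capitals, in Acp5 as its reverse complement, and the strand is that of the gene. The Acp5 window, chr9:22130599-22130848 on the minus strand, belongs to 1 of its 3 starts and the match begins 90 bases before it. The Rufy4 window is chr1:74125291-74125540 on the plus strand, with the match 41 bases before the start. A match is a description of the letters and not evidence that a factor binds.
Acp5: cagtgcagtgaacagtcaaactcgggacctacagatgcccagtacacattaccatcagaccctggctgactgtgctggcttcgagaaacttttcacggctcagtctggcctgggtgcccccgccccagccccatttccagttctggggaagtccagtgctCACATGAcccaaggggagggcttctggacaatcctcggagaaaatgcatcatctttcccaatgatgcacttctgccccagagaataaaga
Rufy4: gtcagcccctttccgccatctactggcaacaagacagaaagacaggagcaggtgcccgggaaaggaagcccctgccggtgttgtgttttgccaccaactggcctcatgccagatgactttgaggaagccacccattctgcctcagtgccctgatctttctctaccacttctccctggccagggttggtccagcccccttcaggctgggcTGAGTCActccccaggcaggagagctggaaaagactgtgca

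Genes for attachment to bone and for the podosomes that hold it changed in both directions. Of 24 integrin genes, 3 were higher and 5 lower (12.5% and 20.8%). Itgb3, the β subunit of the osteoclast's main bone receptor, rose from a deposited mean of 351 to 6965 (4.23 ± 0.30), and its macrophage libraries held 359, 391, 366 and 286. Itga2, the α subunit of a collagen receptor (chr13:114833081-114932100), had 148, 182, 195 and 98.7 normalised reads in osteoclasts and 0, 0, 1.95 and 0 in macrophages. Itgax, known as CD11c, rose by 1.53 ± 0.57, to a deposited mean of 4019, against 51071 in dendritic cells. Itga8 (-2.38 ± 0.46), Itga9 (-2.09 ± 0.22) and Itga6 (-1.33 ± 0.16) were lower, and Itgam and Itgb2, which form CR3, were not called (-0.20 ± 0.15 and 0.25 ± 0.17). Of 38 podosome genes, 16 were higher and 4 lower (42.1% and 10.5%). Src, the kinase needed for the sealing zone, rose by 3.19 ± 0.31, and Bcar1, its substrate p130Cas, by 4.38 ± 0.47. Lyn, another kinase of the Src family, and Ptk2b, which encodes PYK2, were lower (-0.86 ± 0.11 and -0.45 ± 0.13). Among 30 myosins, 7 were higher and 5 lower (23.3% and 16.7%), with Myo1d at 3.09 ± 0.38 and Myo18b at 5.77 ± 0.61, while Myo5a, a carrier of vesicles, was lower (-0.78 ± 0.15). The macrophage mean of Myo1d went from 637 to 403 without library c, and that of Myo18b from 1.22 to 0.650 without library b. Of 24 tetraspanins, 8 were higher and 6 lower (33.3% and 25%). Tspan7 rose (4.49 ± 0.57) and Tspan2 fell (-3.08 ± 0.57). Without library c the macrophage mean of Tspan7 went from 53.5 to 26.5, and without library d the osteoclast mean of Tspan2 from 2.51 to 1.33.

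Secreted signals and their receptors also changed in both directions. Of 24 factors by which osteoclasts act on bone-forming cells, 9 were higher and 4 lower (37.5% and 16.7%). Lif, a cytokine of the interleukin 6 family, held 315, 352, 338 and 130.0 normalised reads in the osteoclast libraries and 0, 2.92, 0.974 and 3.93 in the macrophage libraries, whose mean was 1.96 with library d and 1.30 without it. Vegfc, a growth factor of lymphatic vessels, rose from a deposited mean of 42.1 to 1510.1 and was 3.58 in dendritic cells. Its macrophage libraries held 29.7, 26.3, 90.6 and 21.6, with a mean of 25.9 without library c. Efnb2, a ligand of Eph receptors, rose by 4.33 ± 0.36. Igf1 fell from 23439 to 5375 (-2.11 ± 0.18), and Hgf (-1.21 ± 0.40) and Osm (-0.96 ± 0.33) were lower too by the deposited test. The libraries of Hgf and of Osm overlapped (exact permutation p 0.0857 for each), and limma on recovered reads gave adjusted p = 0.048 for Hgf and 0.0617 for Osm. Sema4d, a semaphorin that restrains osteoblasts, was not called (0.46 ± 0.22), nor was Spp1, which encodes osteopontin (-0.57 ± 0.24). Of 28 semaphorins, plexins and neuropilins, 6 were higher and 7 lower (21.4% and 25%). Sema7a held 380.4, 377, 637 and 221 in osteoclasts and 0, 1.95, 0.974 and 0.983 in macrophages. Nrp1, a receptor of class 3 semaphorins, fell (-2.40 ± 0.20), and Plxnc1, the receptor of Sema7a (-2.49 ± 0.26), while Plxnd1 rose by 1.27 ± 0.19.

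Of 39 cytokine and growth factor receptors, 8 were higher and 14 lower (20.5% and 35.9%). Il1r1, the signalling receptor of interleukin 1, held 97.3, 113, 123 and 77.6 normalised reads in osteoclasts and 1.92, 0.974, 3.90 and 2.95 in macrophages. Its natural antagonist Il1rn rose with it, from a deposited mean of 887 to 8447 (3.22 ± 0.22). Egfr rose by 2.20 ± 0.33 and, of the TNF receptor family, Tnfrsf9, known as 4-1BB, by 3.95 ± 0.57. Csf3r, the receptor of G-CSF, fell (-3.25 ± 0.35), Csf1r, that of M-CSF (-0.89 ± 0.18), and Notch1 (-1.65 ± 0.29). The calcitonin family held 6 tested genes. Calcrl, a relative of Calcr, rose by 0.66 ± 0.25, a call lost with equal upper quartiles, and Ramp1, an accessory protein of both receptors, fell (-2.43 ± 0.76) by the deposited test. The Ramp1 libraries overlapped, with 14.9, 16.9, 2.00 and 2.02 in osteoclasts and 126, 16.6, 123 and 14.7 in macrophages, an exact permutation p of 0.143. Of 19 purine receptors and ectonucleotidases, 6 were higher and 10 lower (31.6% and 52.6%): P2rx5, an ATP-gated channel, rose by 5.11 ± 0.35, and P2rx7 (-1.01 ± 0.20) and the phosphodiesterase Enpp1 (-3.05 ± 0.33) fell. Gpr65, a proton-sensing receptor, fell (-2.67 ± 0.31).

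Genes for mitochondrial proteins encoded in the nucleus were raised broadly and by small amounts. Of 76 genes of oxidative phosphorylation, 61 were higher and 0 lower (80.3% and 0%), and of 26 genes of the tricarboxylic acid cycle 24 and 0. The machinery that builds mitochondria went the same way. Of 78 mitochondrial ribosomal proteins, 48 were higher and 0 lower (61.5% higher against 14.5% of all genes), with a median log2 ratio of 0.43. Mrps6 rose by 1.52 ± 0.19 and Mrps35 by 0.85 ± 0.12, and Mrpl3 was not called (0.28 ± 0.12). Of 31 genes of protein import and folding, 20 were higher and 0 lower (64.5% and 0%), the chaperonin Hspd1 by 1.2 ± 0.16 and the receptor Tomm70a by 0.89 ± 0.11. Cyc1, which encodes cytochrome c1, rose by 1.22 ± 0.14. Of 15 biogenesis factors, 7 were higher and 0 lower (46.7% and 0%), Perm1, a regulator of muscle mitochondria, by 1.2 ± 0.28. Mitochondrial transcripts themselves were not called in any of 12 cases (1 was higher with equal totals), with a median log2 ratio of 0.44. Of these, mt-Cytb had a deposited fold change of 0.45 ± 0.26. Cox4i2 (-2.64 ± 0.72) and Cox6b2 (-0.95 ± 0.38), tissue-specific isoforms of complex IV that were not in the list, were lower, the latter a call lost with equal totals. The libraries of Cox6b2 overlapped (exact permutation p 0.114, limma adjusted p 0.155), and without library c the osteoclast mean of Cox4i2 went from 1.25 to 0.662.

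Fuel supply was less uniform. Of 25 genes of fatty acid oxidation, 11 were higher and 3 lower (44.0% and 12.0%). Acsl1, which activates fatty acids, rose by 1.36 ± 0.22 and Etfdh, which passes their electrons on, by 0.70 ± 0.10, but the 3 genes called lower were all carnitine palmitoyltransferases, the entry step: Cpt1a (-0.46 ± 0.14), Cpt1c (-1.27 ± 0.39) and Cpt1b (-2.66 ± 0.69). The libraries of Cpt1c overlapped (exact permutation p 0.0857, limma adjusted p 0.0617). Of 17 genes of fusion and fission, 7 were higher, and Pink1, a kinase that marks damaged mitochondria, was the only one lower (-0.95 ± 0.32). Of 24 glycolytic genes, 9 were higher and 5 lower (37.5% and 20.8%). Ldhb rose by 2.21 ± 0.21 and the lactate carrier Slc16a1 by 1.19 ± 0.21. Pfkfb3 and Pfkfb4, which set the level of a glycolytic activator, were lower (-1.06 ± 0.22 and -0.86 ± 0.19), and Gapdh and Pkm were not called (0.49 ± 0.24 and 0.51 ± 0.21). Of 16 serine, glycine and one-carbon enzymes, 9 were higher and 2 lower (56.2% and 12.5%), with a median log2 ratio of 0.77: Shmt2, the mitochondrial serine hydroxymethyltransferase, rose by 1.15 ± 0.26 and Mthfd1 by 0.94 ± 0.21. Of 9 creatine genes, 4 were higher and 1 lower (44.4% and 11.1%), with the cytosolic kinase Ckb at 1.89 ± 0.32. Ckmt1, the mitochondrial one, held 159.9, 120.2, 201 and 99.8 normalised reads in osteoclasts and 5.75, 0.974, 0 and 1.97 in macrophages, where the mean was 2.17 with library a and 0.980 without it.

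Genes of protein synthesis and breakdown were raised by small amounts. Of 84 cytosolic ribosomal proteins, many of which have pseudogene copies that can take their reads, 25 were higher and 0 lower (29.8% and 0%), with a median log2 ratio of 0.30. With equal upper quartiles 15 were higher. Of 53 translation initiation factors, 20 were higher and 2 lower (37.7% and 3.77%). The pair called lower was Eif5a2 and Eif2ak2, the latter encoding PKR, an interferon-induced kinase that stops translation (-0.51 ± 0.17). Of 50 proteasome genes, 17 were higher and 4 lower (34.0% and 8.00%), and the first count was 28 with equal totals and 11 with equal upper quartiles. Psmd10 rose by 0.97 ± 0.12, and the 4 called lower belong to the immunoproteasome and its activator: Psmb9, Psmb8 (-0.48 ± 0.16), Psme1 (-0.43 ± 0.11) and Psme2b (-1.47 ± 0.24).

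Among iron genes the main import receptor rose and the exporter fell, and most changes in lipid efflux were downward. Of 24 iron genes, 4 were higher and 7 lower (16.7% and 29.2%). Tfrc, the receptor that takes in transferrin iron, rose from a deposited mean of 2402 to 13051 (2.39 ± 0.32), and Alas1, which opens heme synthesis, rose by 1.25 ± 0.22. Slc40a1, which encodes ferroportin, the exporter of iron, fell from 9318 to 499.9 (-4.10 ± 0.36), and its osteoclast libraries held 379, 538, 717 and 366. Hmox1, which frees iron from heme, fell (-1.63 ± 0.18), and Cd163, a receptor for hemoglobin, held 23.8, 19.9, 64.1 and 144 normalised reads in osteoclasts and 819.6, 1099.5, 318 and 1059 in macrophages, with library c the lowest of the latter. Without library d the osteoclast mean of Cd163 went from 63.0 to 35.9. The ferritin chains were not called (Fth1 -0.41 ± 0.18, Ftl1 0.03 ± 0.24). Of 25 genes of lipid efflux and targets of the sterol-sensing receptor LXR, 1 was higher and 13 were lower (4.00% and 52.0%). The gene that rose was the receptor itself, Nr1h3, which encodes LXRα (1.5 ± 0.33). Its known targets Apoe (-2.89 ± 0.41), Apoc2 (-3.15 ± 0.39) and Mylip (-1.79 ± 0.23) fell. Of 23 genes of cholesterol synthesis and uptake, 4 were higher and 2 lower (17.4% and 8.70%), among them Fdft1, the squalene synthase (-1.20 ± 0.12).

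**Figure D4:**
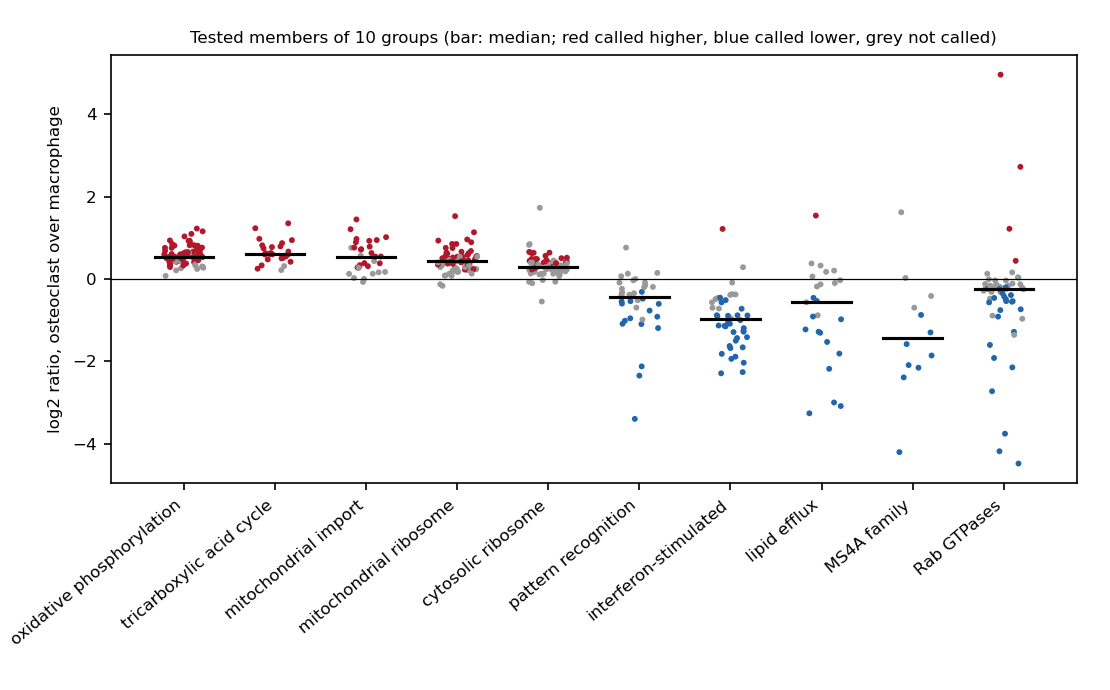
Each point is a tested member of a group, placed by the log2 ratio of deposited means, osteoclast over macrophage, with a mean of 0 set to 0.75; black bars are medians, red was called higher, blue lower and grey not called, and points are spread sideways at random. The 5 groups of mitochondrial and ribosomal genes on the left have medians above 0 and a narrow spread. The 5 on the right have medians below 0 and spread more widely, with some members above 0, such as Rab38.

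The genes that mark resident macrophages were lower. Of 28 tested, 21 were lower and 0 higher, with a median log2 ratio of -1.80. Timd4, a phosphatidylserine receptor (-4.16 ± 0.50), Axl (-3.71 ± 0.68), Mrc1, the mannose receptor (-3.0 ± 0.71), Siglec1 (-2.91 ± 0.44), Cx3cr1 (-2.59 ± 0.42) and Maf, a lineage factor (-2.19 ± 0.32), were among those that fell most. The osteoclast mean of Timd4 was 10.0 with library d and 6.66 without it. Cd68 (-0.12 ± 0.17), Cd14 (-0.51 ± 0.29) and Msr1 (-0.22 ± 0.24) were not called. Adgre1, which encodes F4/80, kept a deposited mean of 26576 in osteoclasts against 42421 in macrophages (-0.67 ± 0.25). Of 9 Fc receptor genes, 0 were higher and 7 lower (0% and 77.8%), with Fcgr1 at -4.29 ± 0.38 and Fcgrt, the neonatal receptor that recycles antibody, at -2.32 ± 0.35. The inhibitory Fcgr2b was not called (-0.41 ± 0.27). Of 23 complement genes, 5 were higher and 6 lower (21.7% and 26.1%): C1qb and C1qc, chains of C1q, fell (-2.16 ± 0.32 and -2.15 ± 0.31), while C3, the central component, rose by 1.2 ± 0.40 and Cd55, which protects cells from it, by 1.37 ± 0.26. Of 22 genes for the uptake of dying cells, 3 were higher and 12 lower (13.6% and 54.5%), with the bridging proteins Gas6 (-2.92 ± 0.29) and Pros1 (-1.88 ± 0.19) and their receptor Mertk (-2.08 ± 0.24). Among lectins and scavenger receptors, Cd5l (-3.71 ± 0.38) and Stab1 (-2.23 ± 0.35) fell, and the lectins Clec4a2 (1.71 ± 0.14) and Clec4a3 (1.44 ± 0.36) rose. None of 12 MS4A membrane proteins was higher and 8 were lower, with a median of -1.97, or -1.44 with means of 0 at their bound.

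Genes that sense microbes and answer interferon were called lower more often than higher. Of 36 pattern recognition genes, 16 were lower (44.4% against 14.7% of all genes) and 0 higher. Ly86, a partner of a receptor related to TLR4, fell (-3.24 ± 0.46), and Tlr8 and Tlr13, sensors of RNA in endosomes (-2.09 ± 0.26 and -1.19 ± 0.14). Of 44 interferon-stimulated genes, 31 were lower and 1 was higher. Stat2, the factor that carries the signal of type I interferon, fell from a deposited mean of 3001 to 1127 (-1.40 ± 0.20). Parp14 fell (-1.12 ± 0.18), Herc6 (-0.88 ± 0.15), Slfn5 (-0.87 ± 0.26) and Trim30d (-1.41 ± 0.24). The gene that rose was Cxcl10, a chemokine that NF-κB also induces (1.19 ± 0.33), while Ifitm3 and Samhd1 were not called (-0.55 ± 0.34 and -0.09 ± 0.17). Of 16 interferon-induced GTPases of the GBP and IRG families, 0 were higher and 9 lower (0% and 56.2%), such as Gbp9 (-1.37 ± 0.25) and Irgm2 (-1.03 ± 0.20). Of 53 TRIM proteins, 6 were higher and 17 lower (11.3% and 32.1%).

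Promoters of the interferon-stimulated genes are shown because most held the same short motif. GAAANNGAA, the core of the interferon-stimulated response element, was in 19 of the 28 windows of 300 bases that RefSeq (GRCm38.p6) held for 23 of the 31 genes called lower. That is 67.9%, against 8.56% of all 32851 windows, with both strands searched. It was in 10.1% of the windows of all genes called lower, 6.56% of those called higher and 7.10% of those tested and not called. The list was chosen for its response to interferon, so the share describes the list and not the effect of RANKL. Cxcl10, the gene of the list called higher, also has a match, 213 bases before its start. So does a window of Acp5, called higher as well, at 166 bases. The 250 bases before the start are given for 4 genes called lower that hold a match, on the strand of the gene, with each match in capitals. Bst2, which encodes tetherin, a protein that holds budding viruses at the cell surface (-1.08 ± 0.20), has 2 overlapping matches, the farther one 130 bases before the start (chr8:71537473-71537722, minus strand). Stat2 has 1 match, 221 bases before it (chr10:128270248-128270497, plus strand). Slfn5 has 2 matches, at 155 and 132 bases (chr11:82951852-82952101, plus strand), and Trim30d has 1 at 40 bases (chr7:104507850-104508099, minus strand).
Bst2: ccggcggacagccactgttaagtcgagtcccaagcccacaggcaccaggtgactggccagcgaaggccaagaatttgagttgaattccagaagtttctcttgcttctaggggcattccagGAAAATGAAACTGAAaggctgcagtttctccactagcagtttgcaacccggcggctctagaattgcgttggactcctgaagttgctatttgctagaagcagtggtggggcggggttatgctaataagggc
Stat2: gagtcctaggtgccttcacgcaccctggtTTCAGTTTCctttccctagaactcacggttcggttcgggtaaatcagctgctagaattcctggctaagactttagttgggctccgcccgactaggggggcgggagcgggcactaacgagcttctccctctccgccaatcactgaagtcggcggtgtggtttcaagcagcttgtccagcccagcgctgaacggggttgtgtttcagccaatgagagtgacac
Slfn5: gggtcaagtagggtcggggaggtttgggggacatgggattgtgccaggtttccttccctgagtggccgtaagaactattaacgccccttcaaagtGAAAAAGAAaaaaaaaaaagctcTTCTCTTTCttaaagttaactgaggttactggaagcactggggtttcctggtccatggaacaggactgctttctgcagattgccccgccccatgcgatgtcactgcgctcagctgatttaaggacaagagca
Trim30d: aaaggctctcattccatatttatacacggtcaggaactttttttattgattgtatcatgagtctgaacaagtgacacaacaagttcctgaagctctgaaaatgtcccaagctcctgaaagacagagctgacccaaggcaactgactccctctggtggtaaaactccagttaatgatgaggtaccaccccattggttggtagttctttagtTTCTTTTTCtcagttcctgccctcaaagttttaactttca

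Genes of antigen presentation and cell traffic changed in part. Of 24 genes of MHC class I presentation, 12 were lower (50.0%), with H2-M3 at -1.11 ± 0.16 and H2-T23 at -0.84 ± 0.17, and 1 was higher, H2-Q7 (1.13 ± 0.31), a gene whose close relatives can share its reads. Of 17 class II genes, 2 were higher and 5 lower (11.8% and 29.4%). March1, which removes class II from the surface, fell (-2.41 ± 0.34), and Cd74 was not called (0.32 ± 0.57). Of 24 chemoattractant receptors, 3 were higher and 12 lower (12.5% and 50.0%). Ccr1 rose from a deposited mean of 793 to 5269.5 (2.70 ± 0.22), and its ligand Ccl9 rose by 0.80 ± 0.23. Ccr2, the receptor that brings monocytes into tissue, held 49.7, 59.6, 50.1 and 57.4 normalised reads in osteoclasts and 270.3, 269.8, 208 and 417 in macrophages. Of 23 chemokines, 3 were higher and 5 lower (13% and 21.7%), and Ccl4 (-3.07 ± 0.30), Pf4 (-2.36 ± 0.56) and Ccl3 (-1.88 ± 0.27) fell. Without library d the osteoclast mean of Pf4 went from 566 to 344.

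Large families were counted in the same way. Of 56 Rab GTPases, which route vesicles, 4 were higher and 24 lower (42.9% against 14.7% of all genes), with a median log2 ratio of -0.25. Of the 4, Rab38, known from lysosome-related organelles, rose most, from a deposited mean of 25 to 780.3 (4.86 ± 0.32), and Rab7, which lysosomes need, was not called (0.16 ± 0.08). Rab27a (-1.58 ± 0.21) and Rab19 (-2.12 ± 0.22) were lower. Of 361 zinc finger proteins, 16 were higher and 52 lower (4.43% and 14.4%), with Zfp36l1, which destabilises RNA, at -2.34 ± 0.32. Of 34 kinesins, 4 were higher and 11 lower (11.8% and 32.4%), with Kif5c (-1.81 ± 0.24) and Kif3a (-1.57 ± 0.29) falling most. Solute carriers went both ways, with 59 higher and 50 lower of 262 (22.5% and 19.1%): Slc9b2, a sodium and proton exchanger, rose by 3.84 ± 0.26, and Slc6a12, a carrier of betaine, by 5.63 ± 0.34. Of 27 collagens, 5 were higher and 2 lower (18.5% and 7.41%), and the higher ones include Col4a5 and Col4a6 of basement membranes (1.86 ± 0.23 and 3.49 ± 0.41). Of 18 cell cycle inhibitors, 3 were higher and 5 lower (16.7% and 27.8%). Cdkn2a rose by 0.93 ± 0.35, with 594, 383, 209 and 221 normalised reads in osteoclasts and 212, 134, 242 and 138 in macrophages, which overlap (exact permutation p 0.143, limma adjusted p 0.0874), and Cdkn1a, which encodes p21, fell (-0.85 ± 0.11), beside Ccng1 (-0.61 ± 0.11), another target of p53.

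**Figure D5:**
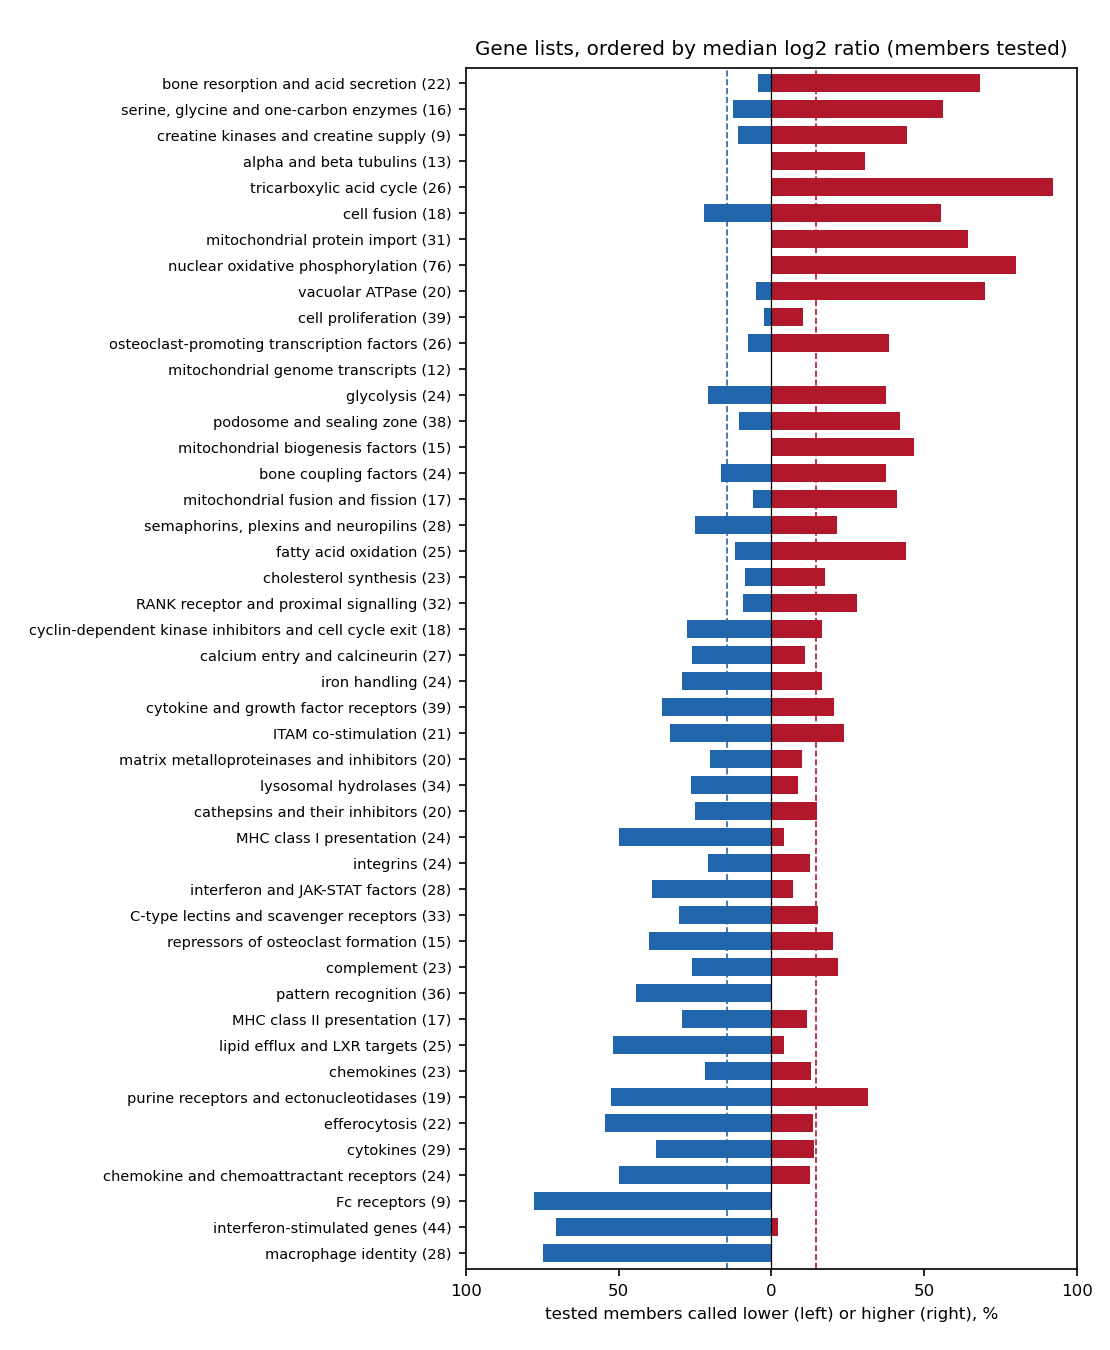
Share of the tested members of each gene list called higher (red, right) and lower (blue, left) in osteoclasts, ordered by the median log2 ratio with means of 0 at their bound; the number of tested members is in brackets, and dashed lines mark the 14.5% and 14.7% of all tested genes. Lists of the tricarboxylic acid cycle, oxidative phosphorylation and resorption are mostly red, and macrophage identity, Fc receptor and interferon-stimulated lists are blue.

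Kinds of genes differed in how often they were called. Of 14099 tested protein-coding genes, 17.4% were higher and 16.4% lower, and of 2536 long non-coding RNAs 4.42% were higher and 9.58% lower. Protein-coding genes called higher had a median exon length of 3989 bases and those called lower of 4936 bases, against 4368 bases for all tested. Markers of other cells that the cultures might have held were summed by list. Over 16 stromal markers the normalised reads ranged from 449 to 992 in osteoclast libraries and from 174 to 665 in macrophage libraries, with 3 and 2 markers at 0. Among them Dcn, which encodes decorin, a matrix protein, held 275, 395, 322 and 137 in osteoclasts against 1.92, 0.974, 0 and 1.97 in macrophages. Of the osteoblast markers, Runx2 had deposited means of 378 and 320.5 in osteoclasts and macrophages and was not called, whereas Col1a1, Sp7 and Bglap had 0.504 and 2.20 (Col1a1), 0.497 and 0.487 (Sp7) and 0 and 0.243 (Bglap). The summed deposited means of 10 endothelial markers were 2576 in osteoclasts and 2289 in macrophages, with 3 and 1 at 0. Vwf held most of both sums, at 2258 and 1990. Of the 7 endothelial markers tested, 0 were higher and 3 lower (0% and 42.9%), with a median log2 ratio of -1.28. The summed deposited means of 17 dendritic cell markers were 4899.9 and 3329.9, with 1 and 0 at 0. All 17 were tested, and 3 were higher and 3 lower (17.6% and 17.6%), with a median log2 ratio of -0.49. Zbtb46 was among those higher in osteoclasts (70.4 and 16.7). The sums for 10 plasmacytoid markers were 3271 and 6436, with 2 at 0 in each. Of the 7 tested, 1 was higher and 2 lower (14.3% and 28.6%), with a median log2 ratio of 0.80. For 15 neutrophil markers the summed deposited means were 569 and 484, with 2 at 0 in each. All 15 were tested, and 1 was higher and 4 lower (6.67% and 26.7%). Their median log2 ratio was -1.50, or -1.19 with a mean of 0 at its bound. Ighm, an immunoglobulin heavy chain, and Cd79b, part of the B cell receptor, were lower (-3.75 ± 0.47 and -4.00 ± 0.62), and without library c the osteoclast mean of Cd79b went from 1.76 to 1.01. The summed normalised reads of 11 recovered B cell markers were 48.1 to 76.5 in osteoclast and 78.9 to 180.2 in macrophage libraries, with 5 and 2 markers at 0. The part of such cells in any result was not tested.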

How the data were processed

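RNA was sequenced as single reads of 50 bases from a stranded mRNA library kit, per the labels' protocols. The submitters' processing notes name bcl2fastq, Bowtie2, TopHat2, Cufflinks 2.1.1, DESeq2 and GRCm38; their roles, the annotation and the counting's strand setting are nowhere given in the sources used here. Genes that overlap may therefore share reads. The authors deposited 1 table with a mean signal per cell type (counts divided by size factors), a log2 fold change and p-values, raw and adjusted, for each gene, per the file headers. It holds no counts per library, so the planned edgeR test was not used, and the calls are the authors' at an adjusted p under 0.05, Benjamini-Hochberg adjusted over 17822 genes.

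Whole reads of each library were worked back from means of at most 1000, with 1 solution for 17313 of 17313 osteoclast and 17859 of 17969 macrophage values; the method was tested on simulated data. These reads, with a mean of at least 5, were tested as log2(reads + 1) with limma 3.58.1 in R 4.3.3. Standard errors are the deposited log2 fold change over the normal quantile of its p-value. Ratios for macrophage means of 1 to 3 reads have 95% intervals, which cover counting error only. Named were the 15 genes with the largest ratio in each direction among called genes with a mean of at least 100, up to 3 per direction and 2 not called from each list by p-value, and genes fixed by name; 45138 genes had a symbol and 934 had none. Members and lists were chosen with earlier results of these data known. The p-values rest on 4 marrow extractions, which the cell types share. In limma and the permutation test the 8 libraries were taken as unpaired, and whether the authors' test paired them is not given. Of columns of samples that could not be placed there were 0. The table gives no total per library, so the depth of each is unknown. Some genes are not reported here. Alternatives covered scaling, adjustment, thresholds, filters, pseudocount and leaving out each library.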

Additional observations from a re-analysis of the deposited data

Results flagged for a closer look

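In the osteoclasts, 1 library stood far from the others for Calcr, at 1292 normalised reads against 568 to 583 in the other 3. Its distance to the nearest library was 0.979 of the whole range, above Dixon's critical value for 4 samples at the 95% level. Of 19 groups of 4 libraries examined in this way, 1 was past that value, and chance alone puts about 1 in 20 past it. The same library was also the highest for Steap4 and Rufy4. Without it the osteoclast mean of Calcr was 577 in place of 755.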

How the results depend on the processing

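No paired analysis was possible because the deposited table gives means, and the libraries recovered from them carry no replicate number. Requiring a 2-fold ratio besides the authors' call left 1002 genes higher and 1184 lower, in place of 2593 and 2623. A mean of 0 in 1 cell type was again taken as past 2-fold. Leaving out 1 library at a time, limma on recovered reads called 888 to 1188 genes higher and 839 to 1127 lower, in place of 1238 and 1145. Equal totals moved the median of all genes by 0.05 on the log2 scale and equal upper quartiles by -0.06, and 55.9% and 41.8% of calls were then upward, in place of 49.7%. Over the 622 genes of the naming rule, equal totals ended 5 calls and added 14, equal upper quartiles ended 7 and added 14, and adjustment over every gene with a p-value ended 8, Tab2, Cox6b2 and 6 others not named here. Setting means of 0 at a bound was added after seeing the data. Means above 1000 could not be split into libraries, so spread between libraries is unknown for the most abundant genes.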

Other observations

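The deposited log2 fold change followed the ratio of the deposited means closely in abundant genes. Over 5420 genes with a mean of at least 1000, the median gap was 0.00124 on the log2 scale, and it was over 0.5 for 10 genes. Lipa, the lysosomal acid lipase, had deposited means of 27166 in osteoclasts and 50033 in macrophages, a log2 ratio of -0.88, beside a deposited log2 fold change of -0.27 ± 0.95. Akap13, an anchor of protein kinase A, had a log2 ratio of 1.18 and a deposited fold change of 0.66 ± 1.06. Eif4g1, the scaffold of the cap-binding complex, had 1.11 and 0.47 ± 1.07 on the same scales, and Sept2, a septin of the cytoskeleton, had 1.07 and 0.40 ± 1.03. None of these 4 genes was called. F13a1, Axl, Dcstamp, Mycl and Scin were called in spite of the gap: Scin, an actin-severing protein, had deposited means of 1089.6 and 5.12, a log2 ratio of 7.73 and a deposited log2 fold change of 7.23 ± 0.51. Mycl, a MYC relative, had 1121 and 18.7, with 5.90 and 5.37 ± 0.61. These genes were chosen after their values were seen.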
